A study of Mus musculus with 24 samples.

Results

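Transcripts of 36 genes of protein folding and stress signalling in the endoplasmic reticulum (ER), of the integrated stress response and of serine synthesis were followed in mouse vascular smooth muscle cells with and without PMCA4, a plasma membrane pump that carries calcium out of the cell. The genes were chosen by name, and every bead-array probe that the platform annotation assigns to one of them was taken, which gave 46 of the 25697 probes. Of the 16593 genes named on the arrays, 33 of the 36 were among them, and Dnajb11, Sdf2l1 and Atf6 had no probe in the annotation. The ER arm holds 24 genes, namely 14 of folding, 6 of degradation and 4 of stress sensing, and the arm of the transcription factor ATF4 and of serine synthesis holds 12. After a filter on dim probes, 27 genes could be tested, 16 of the ER arm and 11 of the ATF4 and serine arm. The probes of Canx, Manf, Derl1, Derl3, Ern1 and Psph were detected on 0 of 24 arrays, so nothing is said of these 6 genes.

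The ER folds secreted and membrane proteins with chaperones, many of which bind the calcium stored in its lumen. When unfolded proteins gather there, the sensors IRE1 (encoded by Ern1), PERK (Eif2ak3) and ATF6 raise chaperones and the retrotranslocation machinery that passes failed proteins to the proteasome. PERK and other kinases also phosphorylate the translation factor eIF2α, which lowers general translation and favours translation of Atf4, whose protein turns on genes of amino acid supply, among them asparagine and serine synthesis, and the transcription factor gene Ddit3 (CHOP). Since ATF4 is controlled to a large part at translation, and XBP1 at splicing, the RNA levels below do not measure the activity of either factor.

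The samples were primary smooth muscle cells of the carotid artery of male C57bl6 mice, in 5 groups: 5 arrays of PMCA4 wild type cells, 5 of PMCA4 knockout cells, 5 of knockout cells electroporated with PMCA4b DNA (a splice variant of the pump), 5 with vector A DNA and 4 with vector B DNA. The 3 electroporated groups thus carry the PMCA4 knockout as well, and the labels name electroporation for those groups only. Cells of every group were synchronized by serum, then given serum and PDGF-BB, a growth factor of smooth muscle, and were taken close to the transition from G1 to S phase. The 2 vectors are called vector A and vector B after the titles, and the labels do not say how they differ, nor whether replicates were separate cultures or animals, so the p-values rest on the spread of these arrays alone, part or all of which may be technical.

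Between 9496 and 10406 probes were detected per array (detection p under 0.01), and the SD of a gene within its group had a median of 0.118 (log2). All levels below are log2 intensities after background correction and quantile normalization, with the lowest detected values of an array between 6.165 and 6.566 and the top at 16.016. Of 3 probes of Atp2b4, the gene of PMCA4, 1 was detected, on 23 arrays, with means of 6.81 in wild type, 6.84 in knockout, 6.73 in PMCA4b, 6.68 in vector A and 6.72 in vector B. Neither the labels nor the files place this probe inside or outside the deleted or transfected sequence, so it checks no label, and the groups are called by their labels throughout. Probes of 7 endothelial markers (Pecam1, Cdh5 and Kdr among them) were detected on 0 arrays, as were those of the contractile markers Myh11, Cnn1, Lmod1, Des and Synpo2, the leukocyte markers Ptprc, Itgam, Adgre1, Lyz2 and Cd79a and the adipocyte markers Adipoq, Plin1, Fabp4 and Lep. The summed level of a marker list is the log2 of the summed intensities of its genes, in which the brightest genes weigh most. That of 6 measured contractile markers, Acta2 and Tagln among them, lay at 14.8 to 15 in wild type, 16.1 to 16.2 in knockout, 15.1 to 15.3 in PMCA4b, and 14.1 to 14.2 in vector A and in vector B. That of 8 fibroblast markers lay at 13.1 to 13.3, 15.3 to 15.4, 13.8 to 14.0, 14.0 to 14.1 and 14.2 to 14.3 in the same order, with Lum and Fap undetected. Single fibroblast markers went both ways, by -3.52 to 2.97 in the vectors against knockout. In PMCA4b against the vectors they differed by -4.42 to 1.30. Levels of 15 cell division genes, such as Plk1 and Top2a, also differed. Their summed level lay at 16.2 to 16.3 in wild type, 15.6 to 15.7 in knockout and 15.7 to 15.8 in PMCA4b. It lay at 14.4 to 14.5 in vector A and 14.9 in vector B. Of the adipocyte list, Plin4 and Pparg were measured, and their summed level lay at 8.30 to 8.61 in wild type, 9.08 to 9.33 in knockout, 6.66 to 7.14 in PMCA4b, 11.5 to 11.7 in vector A and 11.0 to 11.1 in vector B. For the summed level of Plin4 and Pparg, PMCA4b was thus the lowest group and the vectors the highest. Of the leukocyte list, Cd14 alone was measured, at 7.92 to 8.32, 6.75 to 6.98, 8.53 to 8.64, 8.36 to 8.55 and 8.92 to 9.10 in the same order. The part of these shifts in the results below was not tested, and in bulk RNA fewer cells of a type and less RNA per cell cannot be told apart.

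Promoter sequences of 32 of the 36 genes were searched for the binding elements tied to the arms, in windows from 250 bases before to 50 after the annotated transcription start (RefSeq, mouse assembly GRCm38.p6). The ER stress element, bound by ATF6 with the factor NF-Y, was spelled as CCAAT, any 9 bases, then CCACG, on either strand. It was found in 9 of 20 ER windows (45.0%), in 0 of 12 windows of the ATF4 and serine arm and in 39 of all 32851 promoter windows (0.119%). Of 39 ER genes outside the 36 that had a window, 0 held it, so the share of 45.0% holds for the chosen genes only. The 7 genes that hold it and could be tested are shown because they carry the sequence most closely tied to the ER arm, each on the strand of its gene with the matched bases in capitals. Where CCAAT lies on the other strand, the capitals read CGTGG first and ATTGG last.
Hspa5: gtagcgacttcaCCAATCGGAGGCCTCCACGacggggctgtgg
Dnajc3: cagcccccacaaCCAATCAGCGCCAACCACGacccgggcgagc
Pdia6: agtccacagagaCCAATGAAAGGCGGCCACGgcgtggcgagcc
Syvn1: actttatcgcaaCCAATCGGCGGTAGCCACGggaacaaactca
Calr: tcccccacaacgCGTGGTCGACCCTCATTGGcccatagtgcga
Creld2: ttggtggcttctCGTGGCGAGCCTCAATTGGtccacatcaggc
Hsp90b1: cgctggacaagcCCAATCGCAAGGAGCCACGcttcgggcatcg
Hsp90b1: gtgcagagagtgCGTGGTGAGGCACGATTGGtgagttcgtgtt
Canx and Derl3 hold it too and were not detected. Of the genes printed, Hsp90b1 and Calr lie on the minus strand and the others on the plus strand. The printed stretches lie at chr2:34772013-34772055 for Hspa5, chr14:118937815-118937857 for Dnajc3, chr12:17266479-17266521 for Pdia6, chr19:6046520-6046562 for Syvn1, chr8:84847063-84847105 for Calr and chr15:88819508-88819550 for Creld2, and Hsp90b1 holds the element at chr10:86705626-86705668 and again at chr10:86705521-86705563. The matches of these 7 genes began between 44 and 212 bases before the start.

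The C/EBP-ATF element, bound by ATF4 with a C/EBP partner, was spelled as TGATGNAA on either strand. It was found in 3 of 12 windows of the ATF4 and serine arm (25.0%), those of Asns, Chac1 and Trib3, in 1 of 20 ER windows, that of Herpud1, and in 1304 of all 32851 windows (3.97%). The 3 of these that lie before the start are shown for the values that follow, and on the opposite strand the element begins with TT and ends with CATCA.
Asns: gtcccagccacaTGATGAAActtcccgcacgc
Chac1: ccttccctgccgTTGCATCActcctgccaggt
Herpud1: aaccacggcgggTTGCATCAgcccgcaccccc
They lie on the minus strand for Asns and on the plus strand for the others, at chr6:7693213-7693244, chr2:119351037-119351068 and chr8:94386305-94386336, with the element starting 23, 193 and 112 bases before the start site, and the match of Trib3 begins 14 bases after it. A match is a description of letters, not of binding, and a window without one says nothing about the factor.

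**Figure D1:**
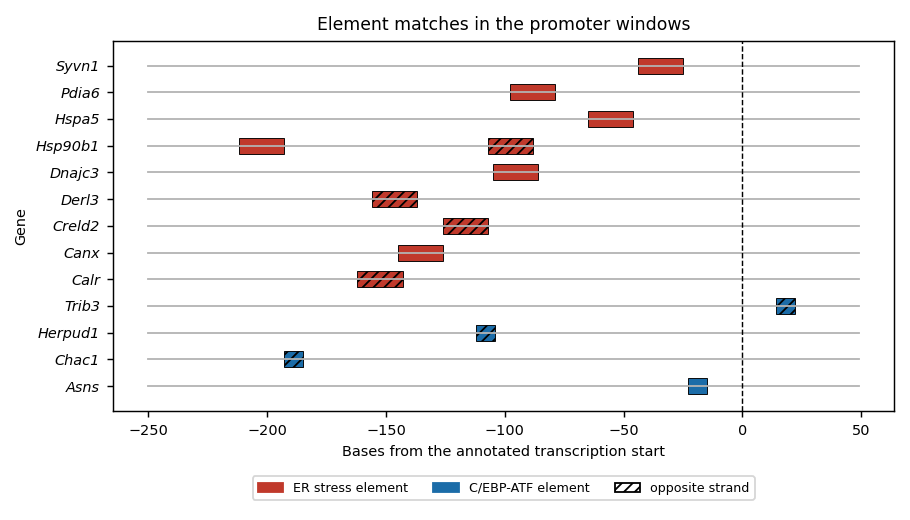
Positions of the matches in the promoter windows, in bases from the annotated transcription start, for the 13 genes with a match. Boxes are matches (red, ER stress element; blue, C/EBP-ATF element; hatched, opposite strand), and Trib3 alone has its match after the start.

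Across the ER arm, PMCA4b cells stood below all the other groups, including the wild type and the knockout itself, as measured by the median of the genes. Each gene was centred on the mean of the 5 group means, and the median over the 16 ER genes was then taken on each array. It lay between -0.46 and -0.39 on the PMCA4b arrays, against group means of 0.10 in wild type, 0.14 in knockout, 0.14 in vector A and 0.14 in vector B. PMCA4b had the lowest group mean for 12 of the 16 genes and the highest for 0, and the other 4 were lowest in vector A (Calr and Creld2), vector B (Hyou1) and knockout (Herpud1). The order of group means was not counted over all genes, so these counts have no share to be read against. For 8 of 16, namely Hsp90b1, Pdia3, Pdia4, Dnajb9, Dnajc3, Sel1l, Syvn1 and Xbp1, all PMCA4b arrays lay below all 19 other arrays, which held for 10.6% of all genes tested. The reverse, all PMCA4b arrays above the other 19, held for 0 of the 16, against 9.77% of all genes.

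**Figure D2:**
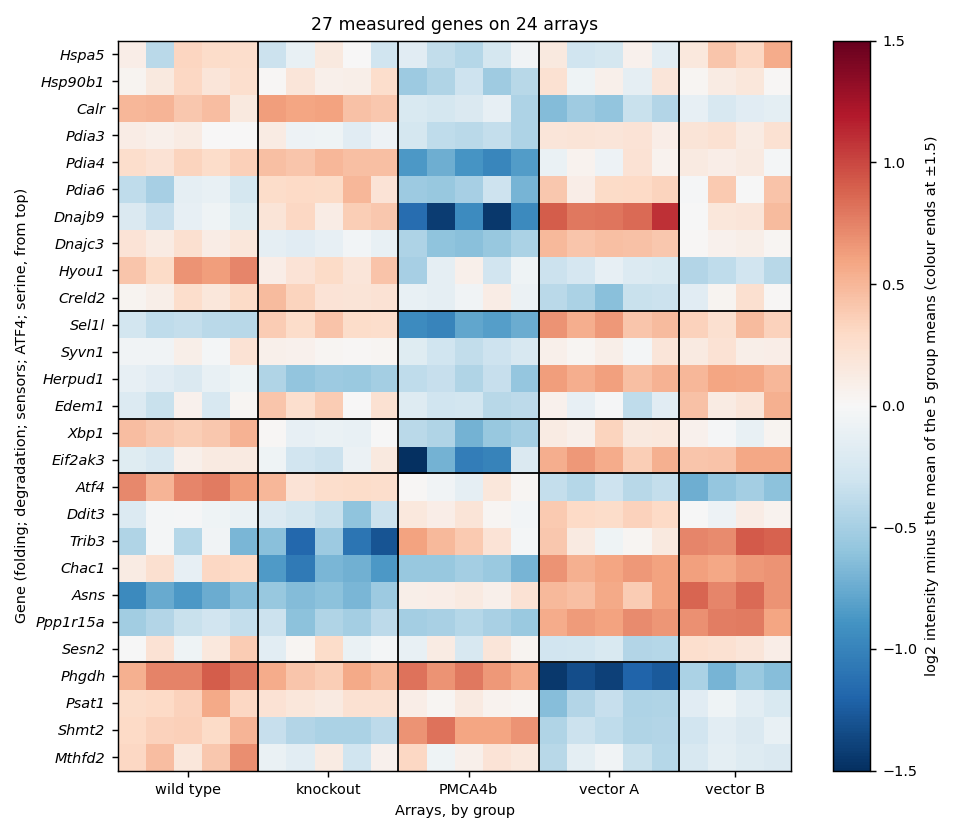
Log2 intensity of the 27 measured genes on each of the 24 arrays, minus the mean of the 5 group means of the gene (colour, red above and blue below, ending at ±1.5). PMCA4b is the lowest group for 12 of the 16 ER genes, and for the 11 ATF4 and serine genes the lowest and highest groups differ from gene to gene. The lowest group was not counted over all genes.

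Counts of changed ER genes were read against all 7675 genes tested, since each comparison moved a large share of them. A gene counts as changed at an adjusted p under 0.05 (limma over all genes, Benjamini-Hochberg), and those also changed at least 1.5-fold are counted apart. In PMCA4b cells compared with the vectors (the average of the vector A and vector B means), 13 of 16 ER genes fell, against 40.5% of all genes, and 0 rose, against 38.3%. At 1.5-fold, 8 fell, against 20.3% of all genes, and 0 rose, against 16.5%. The median ER difference was -0.58, and that of all genes -0.01. In PMCA4b against knockout, 14 fell (33.3% of all genes) and 0 rose (35.9%), with a median of -0.52 against 0.03 for all genes. Of these, 6 fell at least 1.5-fold (15.0% of all genes) and 0 rose so far (11.8%). With the dim genes Eif2ak3 and Edem1 at the bounds given below, these medians were -0.58 and -0.51. Vector, knockout and PMCA4b arrays recur in several comparisons, so their counts are not independent of each other. The deposited table has 3 sets of 8 neighbouring columns, whose nature nothing states. Sets 1 and 2 each hold 2 arrays of wild type, knockout, PMCA4b and vector B. Set 3 holds the 5 vector A arrays and 1 array each of wild type, knockout and PMCA4b, so no counts are given for it. Within sets 1 and 2, 13 and 13 ER genes fell against vector B and 14 and 14 against knockout. Of all 7675 genes, 2419 and 2428 fell there against vector B, and 1991 and 2022 against knockout.

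The knockout and the vectors moved the ER arm in both directions. In knockout against wild type, 5 of 16 ER genes rose (26.6% of all genes did) and 5 fell (31.1%), with a median of -0.03 against -0.04 for all genes. At 1.5-fold, 2 rose (8.63% of all genes), Sel1l and Pdia6, and 0 fell (7.78%). In the vector average against knockout, 7 rose (39.6%) and 4 fell (34.8%), with a median of 0.09 against 0.03 for all genes. At 1.5-fold, 2 rose (16.2%), Herpud1 and Eif2ak3, and 1 fell (13.8%), Calr. In vector B against vector A, 4 rose (27.9%) and 4 fell (25.5%), with a median of 0.00 for both the arm and all genes. At 1.5-fold 0 rose (6.76%) and 1 fell (5.12%), Dnajb9. These counts lie close to the shares of all genes and set the arm apart in neither direction. All vector A arrays lay in set 3 and all vector B arrays in sets 1 and 2, so that vector and set cannot be told apart within a set, and with the set as a block the differences of Calr (0.09), Sel1l (-0.20), Trib3 (0.23) and Xbp1 (-0.11) between the vectors did not pass the test. Within sets 1 and 2, knockout against wild type gave 5 and 2 higher and 3 and 4 lower ER genes. Of all 7675 genes, 1323 and 1335 were higher there and 1420 and 1455 lower. Vector B against knockout gave 2 and 4 higher and 4 and 3 lower ER genes within these sets. Over all genes it gave 2100 and 2166 higher and 1822 and 1881 lower.

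Of the 10 measured folding genes, 7 fell in PMCA4b against the vectors (40.5% of all genes did) and 0 rose (38.3%), with a median of -0.54. Dnajb9 changed most. It encodes ERdj4, a DnaJ co-chaperone of BiP and a known target of XBP1. Dnajb9 read 9.29, 9.16, 9.38, 9.44 and 9.33 in wild type, 9.70, 9.82, 9.63, 9.88 and 9.91 in knockout, 8.36, 8.09, 8.56, 8.06 and 8.56 in PMCA4b, 10.42, 10.30, 10.32, 10.36 and 10.60 in vector A, and 9.50, 9.68, 9.70 and 9.98 in vector B. PMCA4b arrays were the lowest and vector A arrays the highest, and neither overlapped another group. The difference was -1.73 ± 0.088 (SE) in PMCA4b against the vectors, 3.32-fold lower (limma, adjusted p = 1.00e-14), and -1.46 against knockout, 2.76-fold lower. Dnajb9 was also 1.38-fold higher in knockout than in wild type (0.47 ± 0.100 (SE), limma adjusted p = 3.26e-04). It was 1.61-fold lower in vector B than in vector A (-0.68, exact permutation p = 0.00794, the smallest that these group sizes give). Its call of 0.27 in the vector average against knockout rested on vector A, and became -0.07 with vector B alone and -0.17 within set 1. Within the sets the PMCA4b difference was -1.37, -1.53 and -1.85.

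Pdia4, a protein disulfide isomerase of the ER, read 11.16, 11.11, 11.23, 11.17 and 11.26 in wild type, 11.35, 11.32, 11.40, 11.35 and 11.34 in knockout, 10.03, 10.16, 10.01, 9.92 and 10.06 in PMCA4b, 10.79, 10.94, 10.82, 11.11 and 10.95 in vector A, and 11.03, 11.0, 11.03 and 10.87 in vector B. Every PMCA4b array lay below the lowest array of the other groups, and the knockout arrays formed the top. Pdia4 was 1.89-fold lower in PMCA4b than in the vectors (-0.92 ± 0.050 (SE), limma adjusted p = 3.48e-14) and 2.49-fold lower than in knockout (-1.32). The vectors lay between, with -0.40 against knockout. The other isomerases fell as well: Pdia6 by 1.70-fold (-0.76, limma adjusted p = 1.42e-08) and Pdia3, which acts on glycoproteins held by calreticulin and calnexin, by 1.47-fold (-0.56, 4.65e-11). Pdia6 was 1.5-fold higher in knockout than in wild type. The lower level of Pdia3 in knockout (-0.12, limma adjusted p = 0.0425) lost its call when any 1 of 7 arrays was left out, with adjusted p from 0.0672 to 0.135.

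Hspa5 encodes BiP, the main luminal chaperone and a common reporter of ER stress, and its probe read little above the detection floor. Hspa5 read 7.39, 6.89, 7.61, 7.56 and 7.56 in wild type, 6.97, 7.18, 7.44, 7.30 and 7.0 in knockout, 7.12, 6.93, 6.87, 7.03 and 7.24 in PMCA4b, 7.44, 6.99, 7.03, 7.35 and 7.13 in vector A, and 7.45, 7.70, 7.60 and 7.84 in vector B. Vector B lay above knockout, vector A and PMCA4b and overlapped wild type, and the other groups overlapped one another. PMCA4b was 1.3-fold lower than the vectors (-0.38 ± 0.111 (SE), limma adjusted p = 0.00331), which rested on vector B: the difference was -0.15 with vector A alone and no longer passed the test, and it was -0.55, -0.77 and 0.06 within the sets. Hspa5 did not pass the test in knockout against wild type (-0.23, limma adjusted p = 0.129), where leaving out wild type replicate 2 gave -0.35 at an adjusted p of 0.00790. Its vector difference against knockout, 0.24, had an adjusted p of 0.0514, and it passed when any 1 of 7 arrays was left out, with adjusted p from 0.0186 to 0.0496.

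The abundant chaperone Hsp90b1 (GRP94) had means of 13.14 ± 0.10 (SD, n = 5) in wild type, 13.08 ± 0.10 (SD, n = 5) in knockout, 12.50 ± 0.10 (SD, n = 5) in PMCA4b, 13.01 ± 0.16 (SD, n = 5) in vector A and 13.04 ± 0.08 (SD, n = 4) in vector B. It passed the test only where PMCA4b was compared, by -0.52 against the vectors (limma adjusted p = 5.34e-08) and -0.58 against knockout. Dnajc3, the co-chaperone p58IPK, which also inhibits eIF2α kinases, was 1.73-fold lower in PMCA4b than in the vectors (-0.79, limma adjusted p = 2.10e-15), and was lower in knockout than in wild type (-0.28) and higher in the vectors than in knockout (0.36). Calr, the calcium-binding chaperone calreticulin, followed another order. Its means were 12.23 in wild type, 12.36 in knockout, 11.56 in PMCA4b, 11.31 in vector A and 11.65 in vector B. All 3 electroporated groups lay below both others without overlap: the vectors were 1.83-fold lower than knockout (-0.87 ± 0.066 (SE), limma adjusted p = 2.61e-11) and PMCA4b 1.73-fold lower. PMCA4b and the vectors differed by 0.08 (adjusted p = 0.274), which did not pass. Creld2, an ER stress-inducible disulfide isomerase, and Hyou1 (GRP170), a nucleotide exchange factor of BiP, shared that order in part, with vector differences of -0.49 and -0.54 against knockout and 0.15 and 0.12 in PMCA4b against vector, the latter pair not passing the test. A second Creld2 probe passed in PMCA4b against the vectors (0.17, limma adjusted p over all probes = 0.00274) and in knockout against wild type (0.15, 0.0214). The first Creld2 probe passed against the vectors when any 1 of 5 arrays was left out (adjusted p from 0.0157 to 0.0486), and Hyou1 without PMCA4b replicate 1 (0.20, adjusted p = 0.0215).

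**Figure D3:**
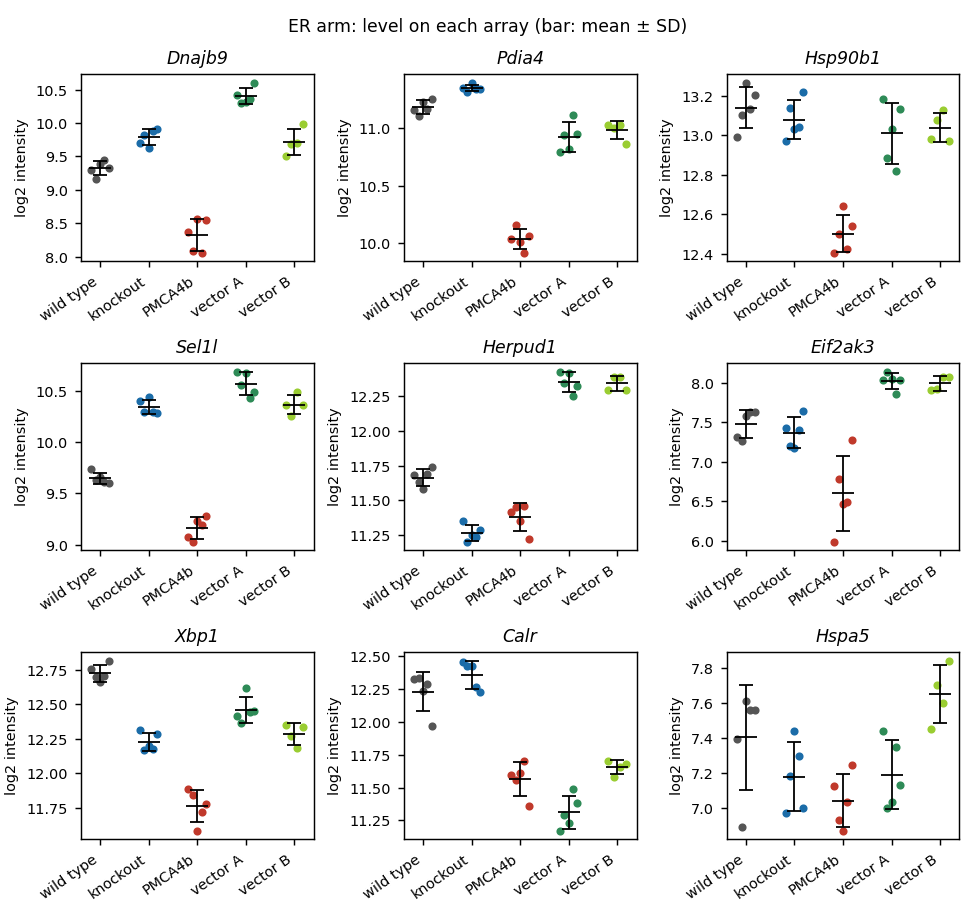
Log2 intensity of 9 ER genes on each array (points), with the group mean and SD (bars). PMCA4b is the lowest group for Dnajb9, Pdia4, Hsp90b1, Sel1l, Eif2ak3, Xbp1 and Hspa5, knockout for Herpud1 (11.27) and vector A for Calr (11.31).

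Degradation genes fell together in PMCA4b cells against the vectors, 4 of 4 measured (40.5% of all genes fell). Their median was -0.69 (-0.68 with Edem1 at its bound). Sel1l, the adaptor of the HRD1 ubiquitin ligase complex, read 9.74, 9.63, 9.66, 9.61 and 9.61 in wild type, 10.40, 10.30, 10.44, 10.29 and 10.28 in knockout, 9.07, 9.03, 9.23, 9.19 and 9.28 in PMCA4b, 10.69, 10.56, 10.67, 10.43 and 10.49 in vector A, and 10.36, 10.26, 10.49 and 10.36 in vector B. PMCA4b was lowest and wild type next, both apart from all other groups, and knockout overlapped vector B. PMCA4b was 2.47-fold lower than the vectors (-1.30 ± 0.053 (SE), limma adjusted p = 1.14e-16) and 2.27-fold lower than knockout, and knockout was 1.62-fold higher than wild type (0.69 ± 0.060 (SE), limma adjusted p = 5.96e-10). Within the sets the drop against the vectors was -1.26, -1.21 and -1.29. Its rise of 0.12 in the vectors against knockout lost its call when any 1 of 6 arrays was left out (limma adjusted p from 0.0642 to 0.0893) and was -0.04 within set 1. A second Sel1l probe gave -1.07 against the vectors, which passed (limma adjusted p over all probes = 1.47e-04), but -0.55 against knockout and 0.26 in knockout against wild type, neither of which passed (0.0598 and 0.411). Syvn1, the ligase HRD1 itself, fell by less, -0.38 against the vectors and -0.32 against knockout (limma adjusted p = 1.08e-07 and 1.22e-05), and did not pass the test in the other comparisons.

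Herpud1, a membrane partner of HRD1, read 11.68, 11.63, 11.58, 11.69 and 11.74 in wild type, 11.35, 11.20, 11.25, 11.24 and 11.29 in knockout, 11.42, 11.45, 11.35, 11.46 and 11.22 in PMCA4b, 12.43, 12.35, 12.41, 12.25 and 12.32 in vector A, and 12.29, 12.39, 12.38 and 12.29 in vector B. Both vector groups lay above all other arrays, and PMCA4b overlapped the knockout. Herpud1 was 1.32-fold lower in knockout than in wild type (-0.40 ± 0.050 (SE), limma adjusted p = 4.00e-07) and 2.11-fold higher in the vectors than in knockout (1.08 ± 0.045 (SE), 2.49e-16). PMCA4b lay 1.95-fold below the vectors (-0.97 ± 0.045 (SE), 1.51e-15) and differed from knockout by 0.11, at an adjusted p of 0.0502, which passed when any 1 of 5 arrays was left out (from 0.0075 to 0.0492). A second probe gave -1.01 against the vectors and passed against knockout (0.12, limma adjusted p over all probes = 0.0118) and in vector B against vector A (-0.10, 0.0456). Herpud1 is the ER gene whose promoter holds the C/EBP-ATF element printed above. By group mean, both vectors also stood on top for Chac1 and Asns, which hold that element. They did so too for Ppp1r15a, Pdia3, Sel1l, Syvn1 and Eif2ak3, whose windows do not hold it, and a link with the element was not tested. Edem1, a lectin that draws misfolded glycoproteins to degradation, lay close to background, detected on 3 of 5 PMCA4b arrays, and was at least 1.31-fold lower there than in the vectors and at least 1.46-fold lower than in knockout (limma adjusted p = 1.40e-04 and 1.70e-05). The first of these did not pass with vector A alone (-0.19), and it was -0.26 within set 3, which holds 1 PMCA4b array.

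Of the sensors, Xbp1 and Eif2ak3 could be tested. Xbp1, whose RNA is spliced by IRE1 to encode an active transcription factor, read 12.76, 12.70, 12.66, 12.70 and 12.82 in wild type, 12.32, 12.17, 12.20, 12.18 and 12.28 in knockout, 11.89, 11.84, 11.59, 11.72 and 11.78 in PMCA4b, 12.42, 12.36, 12.62, 12.44 and 12.45 in vector A, and 12.35, 12.27, 12.18 and 12.34 in vector B. Wild type arrays were highest, PMCA4b arrays lowest, and the knockout and vector B overlapped. Xbp1 was 1.41-fold lower in knockout than in wild type (-0.50 ± 0.058 (SE), limma adjusted p = 1.02e-07) and 1.53-fold lower in PMCA4b than in the vectors (-0.61 ± 0.051 (SE), 1.28e-10). The vectors exceeded knockout by 0.15. Vector B against vector A gave -0.17 (adjusted p = 0.0215), a call lost without replicate 3 of vector A (adjusted p = 0.0736) or replicate 3 of vector B (0.0881). The annotation names the gene only, so spliced and unspliced Xbp1 RNA were not separated.

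Eif2ak3, the gene of PERK, was dim and read 7.31, 7.26, 7.58, 7.63 and 7.63 in wild type, 7.43, 7.20, 7.17, 7.40 and 7.65 in knockout, 5.99, 6.78, 6.46, 6.49 and 7.27 in PMCA4b, 8.04, 8.14, 8.05, 7.86 and 8.03 in vector A, and 7.91, 7.92, 8.07 and 8.07 in vector B. The vector arrays were highest, 3 of 5 PMCA4b arrays were below detection, and the PMCA4b array of set 3 reached into the range of wild type and knockout. PMCA4b was at least 2.42-fold lower than the vectors (limma adjusted p = 9.74e-10) and at least 1.55-fold lower than knockout (8.37e-05). The PMCA4b values spread most of all groups (SD 0.47), and the difference against knockout was -0.37 within set 3, with 1 array on each side. The vectors were 1.56-fold higher than knockout (0.64 ± 0.133 (SE), limma adjusted p = 1.51e-04), while knockout and wild type differed by -0.11, which did not pass.

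**Figure D4:**
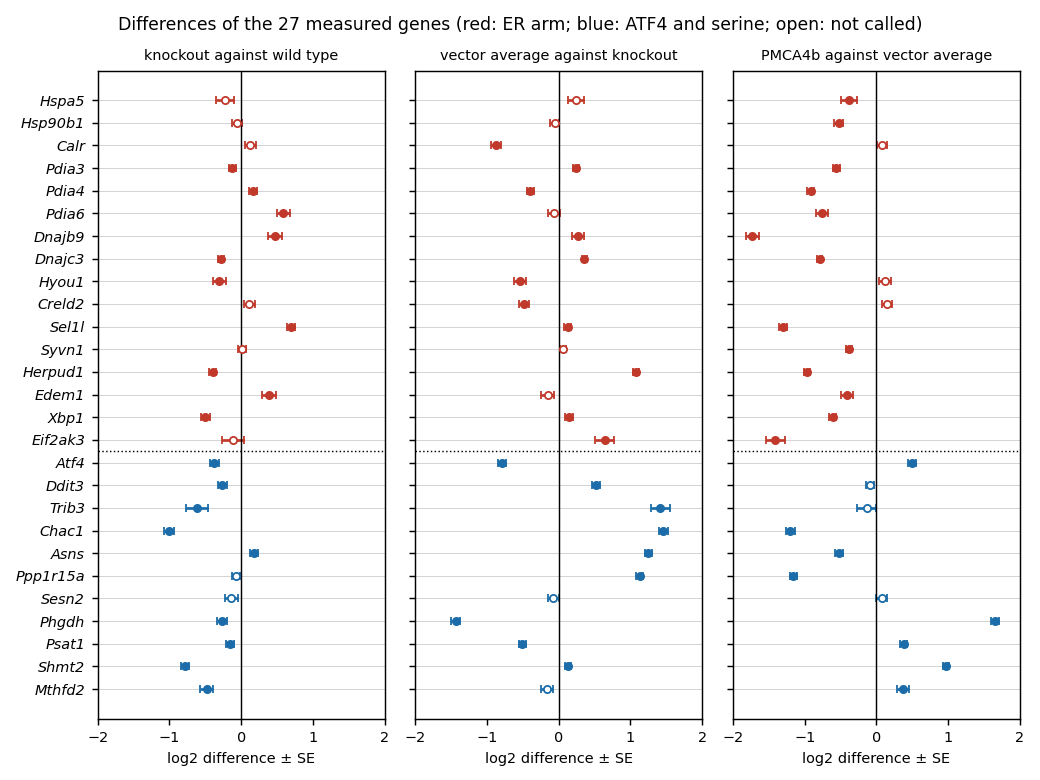
Log2 difference and SE of the 27 measured genes in knockout against wild type, the vector average against knockout, and PMCA4b against the vector average (filled, adjusted p under 0.05; open, not passed). In the last panel 13 of 16 ER genes (red) lie at called values below 0, while ATF4 and serine genes (blue) run from -1.20 for Chac1 to 1.65 for Phgdh; the panels share vector and knockout arrays.

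The ATF4 and serine arm did not move as a block. In knockout against wild type, 8 of 11 fell (31.1% of all genes did) and 1 rose (26.6%), with a median of -0.26. By at least 1.5-fold, 3 fell (7.78%) and 0 rose (8.63%). Of those 3, Chac1, Shmt2 and Trib3, the last was detected on 0 of 5 knockout and 2 of 5 wild type arrays, so no fold can be given for it, and 7 of the other 10 fell. In the vectors against knockout, 6 rose (39.6%) and 3 fell (34.8%), and 4 and 2 did so by at least 1.5-fold (16.2% and 13.8%). Shmt2 is counted among the 6, although its second probe gave the opposite sign. In PMCA4b against the vectors, 5 rose (38.3%) and 3 fell (40.5%), and 2 and 2 did so by at least 1.5-fold (16.5% and 20.3%). In vector B against vector A, 6 rose (27.9%) and 2 fell (25.5%), and 2 and 0 by at least 1.5-fold (6.76% and 5.12%). In PMCA4b against knockout, 6 rose (35.9%) and 2 fell (33.3%), and 3 and 0 by at least 1.5-fold (11.8% and 15.0%). Trib3 is counted among these 3 with a bound of 1.48-fold. The percentages are shares of all genes tested. Within sets 1 and 2, the count lower in knockout was 4 and 6, and the single higher gene was called in neither. Of all 7675 genes, 1420 and 1455 were lower there and 1323 and 1335 higher. The medians of the 2 kinds of member had opposite signs in the 2 comparisons that follow. Of 7 measured ATF4 genes, 5 rose (39.6% of all genes did) and 1 fell (34.8%) in the vectors against knockout. Their median was 1.13, or 0.70 with Trib3 at its bound. In PMCA4b against the vectors, 1 rose (38.3%) and 3 fell (40.5%), with a median of -0.14. Of 4 measured serine genes, 1 rose (39.6%) and 2 fell (34.8%) in the vectors against knockout, with a median of -0.33. With 4 genes, these counts lie near the shares of all genes. The 1 that rose is Shmt2 (0.13), whose second probe gave -0.83, so its direction depends on the probe. In PMCA4b against the vectors, 4 rose (38.3%) and 0 fell (40.5%), with a median of 0.67. The centred median of the ATF4 genes was -0.48 in knockout and 0.61 in vector B, and that of the serine genes 0.43 in wild type, 0.39 in PMCA4b and -0.44 in vector A.

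The level of Atf4 itself went down in steps from wild type to knockout, PMCA4b, vector A and vector B. It read 11.54, 11.33, 11.56, 11.59 and 11.44 in wild type, 11.31, 11.02, 11.08, 11.09 and 11.08 in knockout, 10.84, 10.77, 10.68, 10.99 and 10.85 in PMCA4b, 10.46, 10.39, 10.51, 10.40 and 10.46 in vector A, and 10.09, 10.24, 10.31 and 10.21 in vector B. No group overlapped a neighbour in that order. It was 1.3-fold lower in knockout than in wild type (-0.38 ± 0.064 (SE), limma adjusted p = 2.36e-05), 1.73-fold lower in the vectors than in knockout (-0.79 ± 0.056 (SE), 8.90e-12) and 1.41-fold higher in PMCA4b than in the vectors (0.50 ± 0.056 (SE), 2.34e-08). Vector B against vector A gave -0.23. Its RNA was lowest in the groups where Asns, Chac1 and Ppp1r15a were highest.

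Ddit3, the gene of CHOP, read 9.33, 9.50, 9.51, 9.47 and 9.44 in wild type, 9.33, 9.26, 9.20, 8.93 and 9.21 in knockout, 9.69, 9.63, 9.72, 9.56 and 9.49 in PMCA4b, 9.93, 9.83, 9.81, 9.88 and 9.83 in vector A, and 9.52, 9.46, 9.64 and 9.58 in vector B. Knockout was lowest, touching the range of wild type, vector A was highest, and PMCA4b overlapped vector B. It was 1.2-fold lower in knockout than in wild type (-0.26, limma adjusted p = 0.00102) and 1.43-fold higher in the vectors than in knockout (0.52 ± 0.056 (SE), 1.30e-08). PMCA4b differed from the vectors by -0.08, which did not pass, although it passed with vector A alone (-0.24). Within set 3, which holds 1 PMCA4b array, the difference was -0.36. PMCA4b was 1.35-fold higher than knockout (1.79e-06). A second Ddit3 probe had the same signs but other calls: it passed in PMCA4b against the vectors (-0.25, limma adjusted p over all probes = 0.0134) and did not in knockout against wild type (-0.21, 0.0847) or in vector B against vector A (-0.17, 0.194).

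Chac1, which degrades glutathione and is induced through ATF4, read 10.41, 10.53, 10.17, 10.60 and 10.59 in wild type, 9.44, 9.22, 9.60, 9.57 and 9.42 in knockout, 9.72, 9.72, 9.78, 9.73 and 9.59 in PMCA4b, 10.96, 10.82, 10.88, 10.94 and 10.89 in vector A, and 10.91, 10.87, 10.94 and 10.97 in vector B. Knockout and PMCA4b lay lowest and overlapped at their edge, wild type lay between, and both vectors were highest. It was 2.01-fold lower in knockout than in wild type (-1.01 ± 0.074 (SE), limma adjusted p = 3.37e-11), 2.75-fold higher in the vectors than in knockout (1.46 ± 0.065 (SE), 1.14e-15) and 2.3-fold lower in PMCA4b than in the vectors (-1.20 ± 0.065 (SE), 3.34e-14). Ppp1r15a, which encodes GADD34 and leads to dephosphorylation of eIF2α, read 8.10, 8.19, 8.30, 8.35 and 8.28 in wild type, 8.30, 8.01, 8.18, 8.12 and 8.23 in knockout, 8.12, 8.14, 8.20, 8.15 and 8.08 in PMCA4b, 9.19, 9.27, 9.24, 9.34 and 9.29 in vector A, and 9.31, 9.40, 9.41 and 9.22 in vector B. Here wild type, knockout and PMCA4b overlapped, and both vectors stood above them. The vectors were 2.19-fold higher than knockout (1.13 ± 0.050 (SE), limma adjusted p = 8.37e-16), and PMCA4b was 2.24-fold lower than the vectors (-1.16 ± 0.050 (SE), 3.53e-16). Knockout and wild type differed by -0.07 and PMCA4b and knockout by -0.03, neither of which passed. For both genes, differences between vector A and B were within the spread (0.02 and 0.07).

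Asns, asparagine synthetase, read 11.16, 11.36, 11.25, 11.38 and 11.48 in wild type, 11.55, 11.47, 11.50, 11.44 and 11.58 in knockout, 12.20, 12.21, 12.25, 12.19 and 12.33 in PMCA4b, 12.60, 12.57, 12.68, 12.49 and 12.72 in vector A, and 12.99, 12.85, 12.97 and 12.80 in vector B. It rose in order from wild type and knockout, which overlapped, to PMCA4b, vector A and vector B, each apart from the next. The vectors were 2.38-fold higher than knockout (1.25 ± 0.052 (SE), limma adjusted p = 2.69e-16), and PMCA4b was 1.43-fold lower than the vectors (-0.52 ± 0.052 (SE), 2.63e-09) and 1.66-fold higher than knockout (0.73 ± 0.059 (SE), 1.01e-10). The rise of 0.18 in knockout (limma adjusted p = 0.0113) was not called within set 1 or set 2 alone. Of 3 Asns probes, a dim one, detected on 13 arrays, disagreed in sign in PMCA4b against the vectors (0.55), while the other two gave -0.52 and -0.52.

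Trib3, a pseudokinase that feeds back on ATF4 and CHOP, was close to background. It read 6.19, 6.62, 6.22, 6.59 and 5.96 in wild type, 6.02, 5.47, 6.10, 5.55 and 5.35 in knockout, 7.25, 7.13, 7.04, 6.85 and 6.62 in PMCA4b, 7.05, 6.78, 6.58, 6.67 and 6.80 in vector A, and 7.37, 7.35, 7.57 and 7.52 in vector B. It was detected on 2 of 5 wild type and 0 of 5 knockout arrays and on all electroporated arrays. The vectors were at least 1.62-fold higher than knockout (limma adjusted p = 8.72e-10) and PMCA4b at least 1.48-fold higher (5.20e-08). Vector B exceeded vector A 1.6-fold (0.68, 8.93e-04), and PMCA4b differed from the vector average by -0.14, which did not pass. Sesn2, a stress-inducible inhibitor of mTORC1 signalling, passed only in vector B against vector A (0.52, 1.44-fold, limma adjusted p = 7.54e-05).

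**Figure D5:**
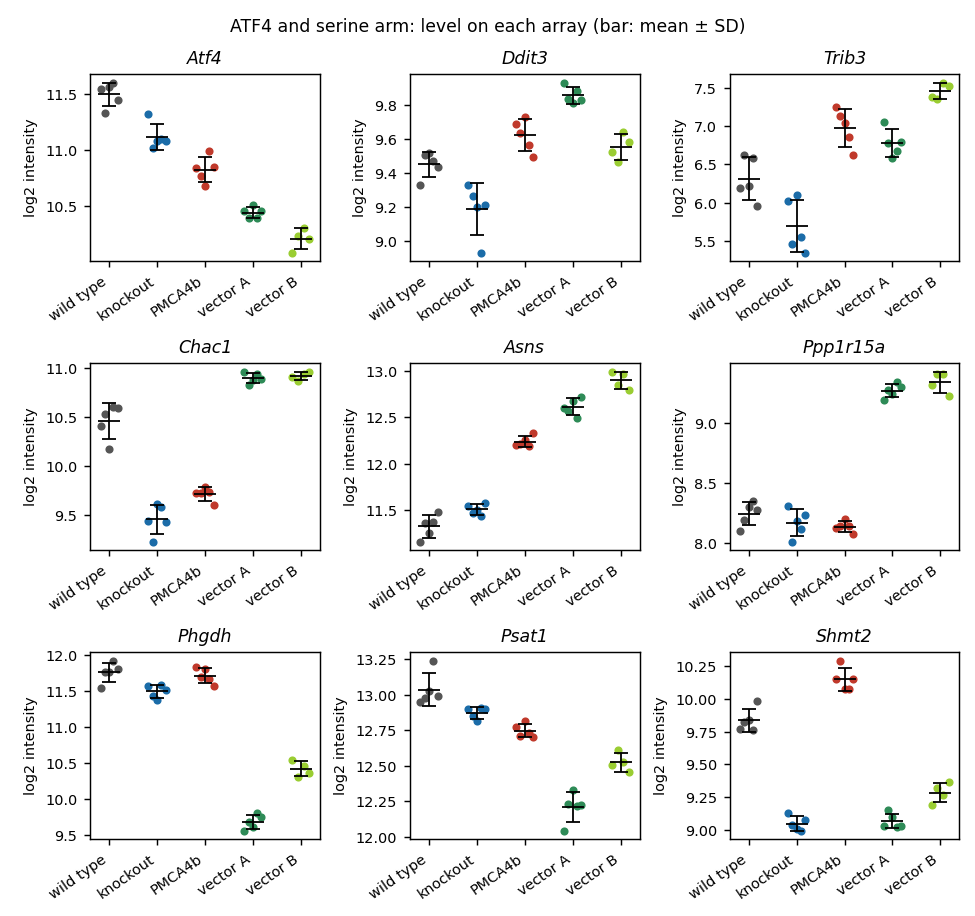
Log2 intensity of 9 ATF4 and serine genes on each array (points), with the group mean and SD (bars). Chac1 and Ppp1r15a are highest in both vectors, Phgdh and Psat1 are lowest there, Shmt2 is highest in PMCA4b (10.15), and Atf4 falls from 11.49 in wild type to 10.21 in vector B.

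The serine pathway makes serine from a glycolytic intermediate through Phgdh, Psat1 and Psph, and Shmt2 and Mthfd2 pass its carbon to folate in mitochondria. Phgdh, the first enzyme, read 11.54, 11.76, 11.76, 11.92 and 11.80 in wild type, 11.57, 11.43, 11.38, 11.58 and 11.50 in knockout, 11.82, 11.69, 11.80, 11.66 and 11.57 in PMCA4b, 9.57, 9.68, 9.61, 9.81 and 9.75 in vector A, and 10.54, 10.31, 10.46 and 10.37 in vector B. Both vector groups lay far below the other arrays, and vector A below vector B. Phgdh was 2.71-fold lower in the vectors than in knockout (-1.44 ± 0.061 (SE), limma adjusted p = 4.09e-16) and 3.15-fold higher in PMCA4b than in the vectors (1.65 ± 0.061 (SE), 1.89e-17). Vector B exceeded vector A 1.66-fold (0.74, 1.59e-08). Within sets 1, 2 and 3 the PMCA4b difference was 1.33, 1.32 and 1.88. Smaller differences separated wild type, knockout and PMCA4b, with -0.26 in knockout against wild type and 0.22 in PMCA4b against knockout, and these groups overlapped.

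Psat1, the second enzyme, was also lowest in vector A and then vector B, with -0.51 in the vectors against knockout (limma adjusted p = 2.16e-09), 0.38 in PMCA4b against the vectors (2.07e-07) and 0.32 in vector B against vector A. Its lower level in knockout (-0.16, limma adjusted p = 0.016) lost its call without wild type replicate 4 (0.0673), and that in PMCA4b against knockout (-0.13, 0.0457) lost it when any 1 of 14 arrays was left out (0.0507 to 0.0888). Mthfd2 was 1.4-fold lower in knockout than in wild type (-0.48, limma adjusted p = 1.41e-04) and 1.3-fold higher in PMCA4b than in the vectors (0.37, 3.15e-04). Shmt2, named after its values were seen, was the single gene of the arm whose PMCA4b arrays all lay above the 19 others, 1 of 11 against 9.77% of all genes. It read 9.77, 9.82, 9.84, 9.76 and 9.99 in wild type, 9.13, 9.04, 9.01, 9.0 and 9.08 in knockout, 10.15, 10.29, 10.07, 10.07 and 10.15 in PMCA4b, 9.03, 9.15, 9.10, 9.03 and 9.03 in vector A, and 9.19, 9.32, 9.27 and 9.37 in vector B. Wild type came next, and knockout and vector A overlapped at the bottom. It was 1.72-fold lower in knockout than in wild type (-0.78 ± 0.052 (SE), limma adjusted p = 5.45e-12), 1.96-fold higher in PMCA4b than in the vectors (0.97 ± 0.046 (SE), 2.47e-15) and 2.14-fold higher than in knockout. A second Shmt2 probe gave 1.93 in PMCA4b against the vectors and disagreed in sign in the vectors against knockout (-0.83 against 0.13), so no direction is given there. Its difference between vector B and vector A did not pass the test (0.10 against 0.22).

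The element matches were set beside these values. The 4 measured genes with the C/EBP-ATF element, Asns, Chac1, Trib3 and Herpud1, all rose in the vectors against knockout (39.6% of all genes did), Asns, Chac1 and Herpud1 by 1.25, 1.46 and 1.08 and Trib3 at least 1.62-fold. The 8 measured ATF4 and serine genes without it, a set that leaves out the ER arm to which Herpud1 belongs, had a median of -0.12. Of these 8, 3 were higher and 3 lower, near the 39.6% and 34.8% of all genes. Ppp1r15a (1.13) was among the 3 higher, as was Shmt2, whose second probe gave the opposite sign. Of 33 other ATF4 genes with a window, 13 held the element, and they were not set against those without it. Of the ER genes, the 7 with the ER stress element had a median of -0.38 in PMCA4b against the vectors, with 5 lower, and the 8 with a window and without it had -0.94, with 8 lower, where 40.5% of all genes were lower. The genes with the largest drops, Dnajb9, Eif2ak3, Sel1l and Herpud1, had no match in their windows to the 1 spelling searched, CCAAT, 9 bases, CCACG. Other spellings of the ER stress element were not searched, and Hyou1 had no window.

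Further genes of the same pathways were listed by function, with earlier results of these data known, and were counted in the same way. They are therefore no independent check of the members. Of 37 other measured ER genes, 23 fell (40.5% of all genes did) and 9 rose (38.3%) in PMCA4b against the vectors (median -0.33), and 21 fell (33.3%) and 3 rose (35.9%) against knockout. The largest drops against the vectors were those of Fkbp14, a prolyl isomerase of the ER (-1.96, limma adjusted p = 2.41e-19), Wfs1, a membrane protein tied to ER calcium (-1.28), Creb3l2, a membrane-bound transcription factor (-1.11), and Os9, a lectin that works with Sel1l (-0.92). In knockout against wild type, 7 rose (26.6%) and 10 fell (31.1%), Spcs3, a signal peptidase subunit, the most (-0.86). In the vectors against knockout, 17 rose (39.6%) and 17 fell (34.8%), with Sec61a1, the pore of the translocon, at -0.73 and the selenoprotein gene Selenok at 0.73. In vector B against vector A, 6 rose (27.9%) and 16 fell (25.5%), with Ssr2, a translocon-associated protein, at 0.97. The counts in knockout against wild type and in the vectors against knockout lie near the shares of all genes.

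Of 30 other measured ATF4 genes, 18 fell (31.1% of all genes did) and 3 rose (26.6%) in knockout against wild type (median -0.21), and 23 rose (39.6%) and 2 fell (34.8%) in the vectors against knockout (median 0.63). Nupr1, a stress-induced chromatin protein, fell by 1.53 on the log2 scale in knockout, and the amino acid transporter gene Slc1a4 by 1.15. Vldlr, a lipoprotein receptor, went the other way in knockout (1.40) and rose further in the vectors (1.96), where the transcription factor gene Atf5 also rose (1.03). Atf3, a factor of the same family, was detected on 9 of 24 arrays only and had means of 7.0 in vector A and 7.30 in vector B against 4.94 in knockout, the last under the detection floor. In PMCA4b against the vectors, 17 fell (40.5%) and 5 rose (38.3%), Vldlr (-2.24), the AP-1 repressor gene Jdp2 (-1.16) and the alanine aminotransferase gene Gpt2 (-0.93) the most among those detected on all arrays. In PMCA4b against knockout, 18 rose (35.9%) and 7 fell (33.3%), with the mTORC1 inhibitor gene Ddit4 at 1.06 and the leucine transporter gene Slc7a5 at 0.77. In vector B against vector A, 14 rose (27.9%) and 8 fell (25.5%), the latter near the share of all genes, with the glycine transporter gene Slc6a9 at 0.90.

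Of 9 other measured genes of serine and one-carbon metabolism, 5 rose (38.3% of all genes did) and 4 fell (40.5%) in PMCA4b against the vectors. The cytosolic serine hydroxymethyltransferase gene Shmt1 rose most (1.91, 3.76-fold, limma adjusted p = 1.81e-16), followed by the purine synthesis genes Gart (1.16) and Atic (0.85), while the mitochondrial serine carrier gene Sfxn1 fell by 0.85. In the vectors against knockout, 3 rose (39.6%) and 3 fell (34.8%), with Shmt1 at -1.27 and Sfxn1 at 0.85. In knockout against wild type, 1 rose (26.6%) and 6 fell (31.1%), among them Tyms (-0.69) and Shmt1 (-0.56). In PMCA4b against knockout, 5 rose (35.9%) and 1 fell (33.3%), and in vector B against vector A, 4 rose (27.9%) and 1 fell (25.5%). With 9 genes, the counts against the vectors and in the vectors lie near the shares of all genes. The cell division genes moved alongside: 15 of 15 were lower in knockout than in wild type (31.1% of all genes) and in the vectors than in knockout (34.8%). In PMCA4b against the vectors 15 of 15 were higher (38.3%), and in vector B against vector A 14 of 15 were (27.9%). Their part in the levels of the serine, folate and purine genes was not tested.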

How the data were processed

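The samples were hybridised to 24 Illumina bead arrays, 1 colour each. The authors deposited the bead signal of every probe as an intensity that was not normalized but already had background subtracted, since 28.28 to 30.86% of values lay below 0, and they deposited a detection p-value beside each. They also deposited a log2 table of the same arrays, whose columns all had a median of 6.244 and a rank correlation of at least 1.000 with their own array against at most 0.961 with another, and it served as an alternative. Its normalization method is not known here. Probes were named from the platform annotation, in which 23978 had 1 gene and 1719 none.

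From the intensities, limma 3.58.1 in R 4.3.3 was used for background correction with detection p-values, an offset of 16 and quantile normalization (neqc). The filter on dim probes asked for 4 or more arrays with a detection p under 0.01 and left 11139 probes, and the probe with the highest mean stood for a gene, leaving 7675 genes. One fit over all 24 arrays gave each group a mean, and comparisons used moderated statistics with Benjamini-Hochberg adjustment over all genes, called at 0.05 and, as a second rule, at 1.5-fold in addition. Single genes were also tested with exact two-sided permutation. A probe below detection on arrays of the lower group has a fold given as a lower bound, against the higher of the detection floor and its own level on each array. The number of arrays, not a count of reads, limits the precision. The quantile normalization and the fit were tested on simulated log2 values, for knockout against wild type only. Background correction, the filter, the choice of probe and the bounds were not tested in that way.

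Members and gene lists were chosen with earlier results of these data known. Values on every array are given for the 5 members of each arm with the largest called differences and for Hspa5, Xbp1, Atf4, Ddit3, Asns and Phgdh, and up to 4 other genes per pathway list and comparison are named by size of difference, dim ones excepted. Replicate numbers were checked for pairing: deviations of same-numbered arrays correlated between -0.04 and 0.46, not above 0.1 in every pair. The mean was 0.137 for wild type with knockout and 0.169 for knockout with PMCA4b, against -0.034 and -0.041 for arrays of other numbers. For the other pairs of groups it lay between -0.001 and 0.061. The main fit used no pairing, and a replicate block was run as an alternative. Promoter sequences came from RefSeq (GRCm38.p6). Protein sequences were not used here.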

Additional observations from a re-analysis of the deposited data

Results flagged for a closer look

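Of 135 groups of arrays examined over the 27 genes, 3 held an array far from the rest of its group, and chance alone marks about 1 in 20 groups. Calr read 11.97 on wild type replicate 5, below the other wild type arrays. Atf4 read 11.31 on knockout replicate 1, above the other knockout arrays. Psat1 read 13.24 on wild type replicate 4, above the other wild type arrays, and without that array its difference between knockout and wild type did not pass the test (-0.11, limma adjusted p = 0.0673).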

How the results depend on the processing

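The counts of ER genes lower in PMCA4b, 13 against the vectors and 14 against knockout, kept within 1.5 times under every alternative run, and single arrays left out gave 13 to 13 and 14 to 14. Within sets of 8 neighbouring columns, where few arrays remain, other counts moved. Fewer of all 7675 genes were called there as well. Knockout against wild type called 1323 higher and 1420 lower in set 1, against 2038 and 2390 with all arrays. In set 2 it called 1335 and 1455. The vectors against knockout called 2100 and 2166 higher in sets 1 and 2, against 3039. PMCA4b called 2083 higher against the vectors in set 1, against 2942 with all arrays. Set 3 holds 1 array each of wild type, knockout and PMCA4b, so the moved counts within it are left out. Knockout against wild type gave 2 ER genes higher (set 2) and 3 lower (set 1), each in place of 5. It gave 0 ATF4 and serine genes higher in place of 1 within sets 1 and 2, with the mean of a gene's probes and at an adjusted p under 0.01. Within set 1 it gave 4 lower in place of 8. ER genes higher in the vectors against knockout numbered 2 (set 1) and 4 (set 2) in place of 7. ER genes higher in PMCA4b against the vectors numbered 0, but 1 with the set as a block, with genes detected on all arrays or with the mean of probes. They numbered 2 with scaling to a common median or vector A alone. The ATF4 and serine genes higher there numbered 3 in place of 5 within set 1. ER genes lower in vector B numbered 2 in place of 4 with the set as a block. In PMCA4b against knockout, ER genes higher numbered 1 in place of 0 without further background correction, with a common median, with genes detected on all arrays and with the mean of probes. ATF4 and serine genes lower there numbered 1 in place of 2 with the replicate block, within set 1, with a common median, with no filter and at an adjusted p under 0.01. Within set 2 they numbered 0. With single arrays left out, ER genes higher in PMCA4b ranged from 0 to 1 against the vectors and against knockout, and ATF4 and serine genes lower against knockout from 1 to 2. The replicate block moved no other count by over 1.5 times.

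Signs turned in the vectors against knockout for Dnajb9 (-0.17 within set 1, -0.073 with vector B alone), Sel1l (-0.040 within set 1) and Shmt2 (-0.012 within set 3, -0.35 with the mean of its probes, limma adjusted p = 3.17e-08), and for Hspa5 in PMCA4b against the vectors (0.055 within set 3). For Shmt2 the second probe opposes the first, and elsewhere the cause was not tested. Levels near the detection floor, such as those of Trib3, Edem1 and Eif2ak3, allow bounds rather than folds.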
